A study of Homo sapiens with 6 samples.

Results

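The genes examined here build and control the mitotic spindle and the kinetochore. They are 59 genes given as a list, and each was followed on its brightest probe set over the 6 arrays among those paired with that symbol alone. All 59 were tested, out of 9241 genes tested and 11963 genes with such a probe set. Expression was measured in LNCaP, an established human prostate cancer cell line grown in RPMI medium, on Affymetrix arrays. Untreated control cells, which carry prostate-specific membrane antigen (PSMA, encoded by FOLH1), were compared with cells in which PSMA had been knocked down by a short hairpin RNA delivered with a retrovirus, with 3 arrays in each group. The labels do not say whether the control cells received an empty vector, whether the knockdown cells were 1 clone, or whether the arrays of a group stand for separate cultures. The p-values therefore rest on the spread from array to array, which may be technical only. The comparison asks which transcripts differ when LNCaP cells have less PSMA.

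In mitosis, CDK1 bound to its cyclins drives entry, condensins and topoisomerase II compact and disentangle the chromosomes, and microtubules capture each chromosome at its kinetochore, the protein assembly on the centromere. Motor proteins of the kinesin family move chromosomes and space the spindle poles, while the spindle checkpoint holds the cell until every kinetochore is attached. The anaphase-promoting complex (APC/C), switched on by CDC20, then marks securin and the cyclins for destruction, and the central spindle places the cleavage furrow. Most of these genes are transcribed in G2 and mitosis, which is why they are widely read as markers of cycling tumour cells. In RNA from whole cultures, fewer cells in mitosis and less RNA per mitotic cell cannot be told apart.

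FOLH1, the knocked-down gene, measured lower in each of the 3 knockdown arrays. On the log2 scale of array intensity, the 3 probe sets shared by FOLH1 and its near-identical copy FOLH1B differed by -2.27, -2.23 and -2.72, and the probe set paired with FOLH1 alone by -0.79. Luminal markers of the prostate were present, with KRT18 at 11.57 in both groups. In knockdown cells 4 of the 8 measured were higher (50%, against 19.4% of all genes tested) and 2 lower (25%, against 16.5%). KRT19 rose by 1.67, ACP3 by 0.79, KLK2 by 0.41 and TMPRSS2 by 0.28 on the log2 scale, while KLK3 fell by 0.71 and HOXB13 by 0.25. Neither of the 2 basal markers measured passed the test. None of the 3 leukocyte markers or 2 endothelial markers measured passed the test, and the summed intensity of the former was 61.69 to 67.27 in control and 59.57 to 68.86 in knockdown arrays. Of 5 fibroblast and smooth muscle markers measured, ACTA2 and COL3A1 were higher, and the summed intensity of the 5 was 257.2 to 264.2 in control and 375.9 to 382.1 in knockdown arrays. The part of these markers in the results was not tested. The median intensity of an array was 48.2 to 50.3. The array's own controls separated the groups as well. Signal from 5′ relative to 3′ probe sets differed by -0.82 (log2, knockdown minus control) for beta-actin, by -0.10 for GAPDH and by -0.97 for dap, an added bacterial control, and the 18 hybridisation control probe sets had a mean of 10.51 against 11.34. Each of these 4 measures gave p = 0.1 in an exact permutation test, two-sided, the smallest that 3 arrays against 3 allow. Array processing and group therefore cannot be told apart for any gene described here.

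The mitotic genes did not move one way. In knockdown cells 7 of 59 were higher (11.9%, against 19.4% of all genes tested) and 11 were lower (18.6%, against 16.5%), at a limma adjusted p under 0.05. Together 30.5% passed the test, against 35.9% of all genes, so the share of mitotic genes called was not above that of the array as a whole. The median log2 difference, knockdown minus control, was -0.01 over the 59 genes and 0.03 over all genes. The arrays of the groups did not overlap for 28 of the 59 genes (47.5%, against 49.4% of all genes), with knockdown higher in 11 (27% of all genes) and lower in 17 (22.4% of all genes). The largest fall was in CENPE, the kinetochore motor, and the largest rise in KIF22, a motor that binds chromosome arms. All differences were small: those of the 18 called genes ran from 0.16 to 0.81 in size, and 0 of the 59 genes reached a called change of 2-fold. Of the 18, CENPE, PLK4, PLK1, KIF11, AURKA, CDC20, KIF20A and UBE2C kept their call under every alternative that could be run for them. For AURKA these include a run on a dim probe set that barely reached the filter on low values, so that run adds no support. CENPE, PLK1, KIF11, CDC20, KIF20A and UBE2C each had 1 probe set past the filter. The mean over probe sets could not alter their values, so a call kept there adds no support. TOP2A, MKI67 and KIF22 lost their call only under another handling of their probe sets.

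**Figure D1:**
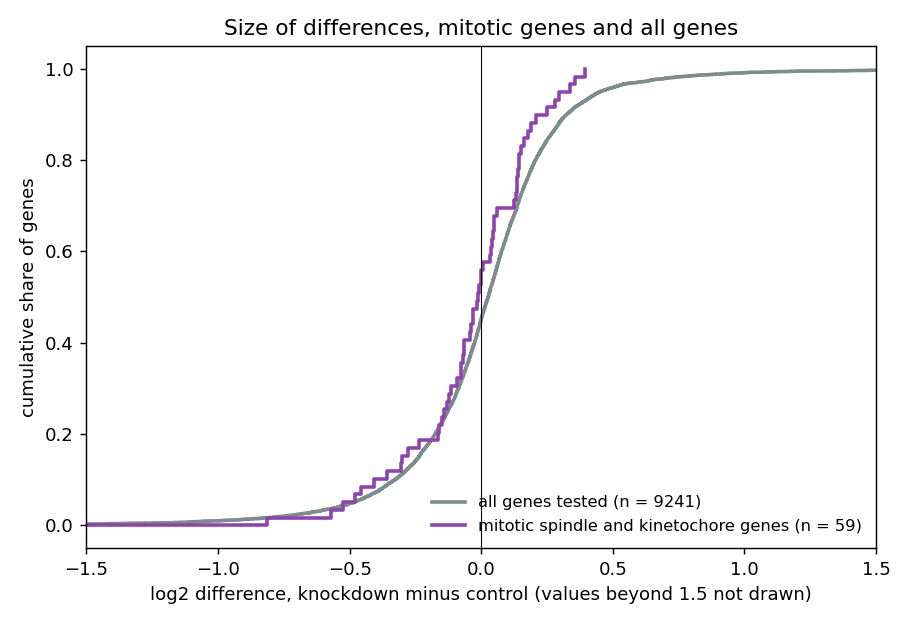
Cumulative share of genes (vertical axis) against the log2 difference, knockdown minus control (horizontal axis), for the 59 mitotic genes and for all 9241 genes tested. The curves have medians close to 0, at -0.01 and 0.03, and the mitotic genes run from -0.81 to 0.40.

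Promoters of genes active in G2 and mitosis often hold a cell cycle genes homology region (CHR), most often TTTGAA or TTCGAA, where MuvB complexes bind, and CCAAT boxes bound by NF-Y. RefSeq promoters of assembly GRCh38.p14, each from 250 bases before to 50 after the gene's start, were found for 50 of the 59 genes. AURKA, BIRC5, BUB3, CENPM, FOXM1, RACGAP1, TPX2, TTK and UBE2C had no entry. Both strands were searched, so that TTTGAA is also counted where it reads TTCAAA, and motifs were counted separately and may overlap each other. TTTGAA or TTCGAA lay in 36 of the 50 promoters (72%), against 10.9% of the promoters of 7540 tested genes and 16.6% of the 27305 promoters used. At least 2 CCAAT boxes were in 22 (44%), against 13.8% and 11.3%. The motif was present in 9 of the 10 promoters of genes that were lower, 3 of the 5 of genes that were higher and 24 of the 35 (68.6%) of genes not called, so promoters with it occurred in all 3 classes. The following stretches of 30 bases are shown because they set genes that fell beside genes that rose. Capitals mark the motif, and the position is that of its first base relative to the gene's start. PLK1 (chr16:23678848-23678877, plus strand, position -29), MKI67 (chr10:128126435-128126464, minus strand, -29), NCAPG (chr4:17810932-17810961, plus strand, -35) and KIF11 (chr10:92593090-92593119, plus strand, -28, motif on the opposite strand) were lower in knockdown cells.
PLK1: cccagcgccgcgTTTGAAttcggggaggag
MKI67: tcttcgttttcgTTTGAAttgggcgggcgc
NCAPG: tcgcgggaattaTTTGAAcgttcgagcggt
KIF11: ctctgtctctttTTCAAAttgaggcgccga
CDC20 (chr1:43358904-43358933, plus strand, position -65) and KIF22 (chr16:29790712-29790741, plus strand, -27) were higher in knockdown cells and hold the same motif or its TTCGAA form.
CDC20: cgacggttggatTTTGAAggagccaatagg
KIF22: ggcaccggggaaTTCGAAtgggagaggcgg
CENPE, which fell most, was the gene without either form among the 10 promoters of lower genes. Its promoter held 3 matches to TTTAAA, a motif searched after this promoter had been seen, which occurred in 14 of the 50 promoters (28%) and in 7.39% of those of tested genes. A match was also present in KIF20A, which was higher in knockdown cells. The stretch shown for CENPE holds 2 of its 3 matches side by side, of which the one nearer the start is in capitals. Shown are CENPE (chr4:103198388-103198417, minus strand, position -62) and KIF20A (chr5:138179059-138179088, plus strand, -41).
CENPE: ggaaattttaaaTTTAAAggcggggcggcc
KIF20A: cgcagcgcgtaaTTTAAAatattgtatctg

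Of the 7 centromere and kinetochore genes, 2 fell (28.6%, against 16.5% of all genes) and 0 rose (19.4% of all genes). CENPE is a long plus-end kinesin that tethers kinetochores to microtubules and carries chromosomes to the metaphase plate. Its log2 intensity was 8.06, 8.18 and 8.45 in the control arrays and 7.28, 7.49 and 7.47 in the knockdown arrays. Every knockdown array lay below every control array, and the gap between the groups was wider than the range within either. The means were 8.23 ± 0.20 and 7.42 ± 0.12 (SD, n = 3 each), a 1.76-fold fall (log2 difference -0.81, SE 0.11, limma adjusted p = 0.00109). CENPE had 1 probe set on the array, so no second probe set could be set beside it. ZWINT, the KNL1-bound protein that recruits the RZZ complex, read 11.25, 11.25 and 11.31 in control and 11.12, 11.08 and 11.12 in knockdown arrays. Its arrays did not overlap, but the fall was slight (log2 difference -0.16, SE 0.05, limma adjusted p = 0.0318). The call was lost without a filter on low values (adjusted p = 0.0516) and when any 1 array other than knockdown array 3 was left out, with differences of -0.17 to -0.14 and adjusted p values of 0.0569 to 0.103. The other 5 genes were not called. Among them, the corona protein CENPF had a log2 difference of -0.01 and NDC80, the microtubule-binding subunit of the outer kinetochore, of -0.06. The inner kinetochore proteins CENPC and CENPM differed by -0.04 and -0.12. CENPA, the histone H3 variant that marks the centromere, differed by 0.14 on its own probe set and by 0.27 on a probe set it shares with SLC35F6, which cannot be ascribed to either gene.

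**Figure D2:**
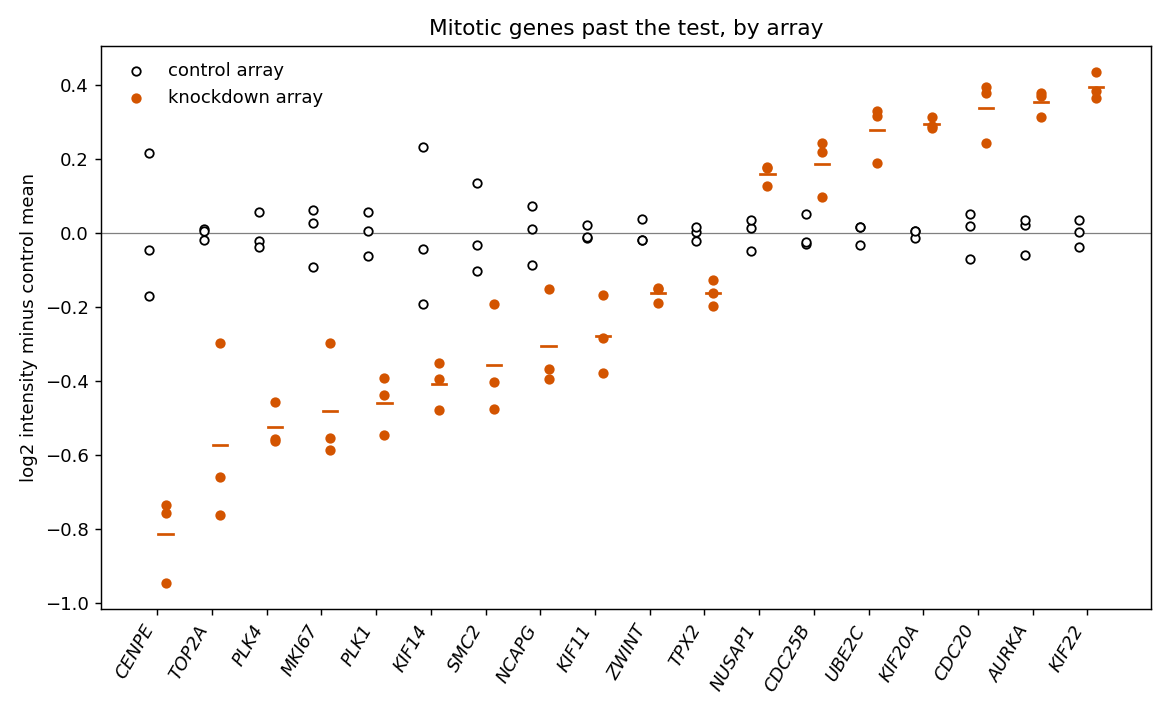
Log2 intensity of each array minus the mean of the 3 control arrays (vertical axis) for the 18 mitotic genes past the test, ordered by difference, with open points for control arrays, filled points for knockdown arrays and bars for the knockdown means. The control and knockdown points of each gene are separate, with the widest separation for CENPE at the low end and KIF22 at the high end, and TOP2A and MKI67 each show 1 knockdown array nearer to control than the other 2.

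Of 6 genes of mitotic chromosome structure 4 fell and 0 rose, with a median log2 difference of -0.33 (all genes: 16.5% lower, median 0.03). None of the 4 falls held under every alternative: SMC2 and NCAPG were both lost without knockdown array 1 or knockdown array 2, and TOP2A and MKI67 with another handling of their probe sets. TOP2A, the topoisomerase that untangles sister chromatids, read 9.75, 9.72 and 9.75 in control arrays and 9.08, 8.98 and 9.45 in knockdown arrays. Knockdown array 3 lay nearer to the controls than the other 2, though still below them. The fall was 1.49-fold (log2 difference -0.57, SE 0.11, limma adjusted p = 0.00645), while the other probe set differed by -0.13 and was not called. That probe set stood for the gene when probe sets with the suffix _x_at or _s_at, whose probes can hit more than 1 transcript, were left out (adjusted p = 0.23). MKI67 encodes the Ki-67 antigen, which coats mitotic chromosomes. It read 7.97, 8.01 and 7.85 in control and 7.65, 7.36 and 7.39 in knockdown arrays, with no overlap, a 1.39-fold fall (log2 difference -0.48, SE 0.09, limma adjusted p = 0.00463). Its second probe set also fell, by 0.33, whereas the other 2 differed by 0.20 and 0.17 without passing the test. With the mean of all 4 probe sets the difference was -0.11 (adjusted p = 0.211).

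The other 2 falls were in condensin subunits. SMC2, the ATPase subunit common to both condensin complexes, read 7.92, 7.99 and 8.15 in control and 7.54, 7.62 and 7.83 in knockdown arrays. The highest knockdown array came close to the lowest control array without reaching it. The log2 difference was -0.36 (SE 0.09, limma adjusted p = 0.0196), and a second probe set fell by 0.41. NCAPG, a subunit of condensin I, read 9.87, 9.97 and 10.03 in control and 9.56, 9.59 and 9.81 in knockdown arrays. Its groups were likewise separated by a narrow gap, with a log2 difference of -0.30 (SE 0.08, limma adjusted p = 0.0206) and a fall of 0.60 on its second probe set. Both calls depended on single arrays. SMC2 lost its call without control array 3 (-0.29, adjusted p = 0.0578), knockdown array 1 (-0.30, 0.0673) or knockdown array 2 (-0.33, 0.0685). NCAPG lost its call without control array 2 (-0.30, adjusted p = 0.0588), control array 3 (-0.27, 0.0648), knockdown array 1 (-0.26, 0.0700) or knockdown array 2 (-0.27, 0.0748). SMC4, the partner ATPase of SMC2, differed by -0.15 (95% interval -0.30 to 0.01) and NCAPH, the kleisin of condensin I, by 0.04, and neither was called.

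Mitotic kinases moved in both directions. Of the 7 kinase and chromosomal passenger genes, the polo-like kinases PLK4 and PLK1 fell and the Aurora kinase AURKA rose. That is 28.6% lower and 14.3% higher, against 16.5% and 19.4% of all genes. PLK4, which starts centriole duplication, read 7.55, 7.53 and 7.62 in control and 7.003, 7.009 and 7.109 in knockdown arrays. The arrays of each group lay within a narrow band, and the bands were far apart. The fall was 1.44-fold (log2 difference -0.53, SE 0.06, limma adjusted p = 4e-04), and the second probe set fell by 0.30. PLK1, which drives mitotic entry, centrosome maturation and kinetochore attachment, read 6.64, 6.69 and 6.57 in control and 6.24, 6.20 and 6.09 in knockdown arrays. Its groups did not overlap either, and the fall was 1.37-fold (log2 difference -0.46, SE 0.06, limma adjusted p = 0.00115). PLK1 lies on chromosome 16, where the median over all measured genes was -0.10, and its difference was -0.36 once the median of its chromosome was subtracted. AURKA, which organises the spindle poles and activates PLK1, read 9.58, 9.50 and 9.59 in control and 9.94, 9.87 and 9.93 in knockdown arrays. All knockdown arrays were above all control arrays, by 1.28-fold in the mean (log2 difference 0.35, SE 0.05, limma adjusted p = 0.00174), and both other probe sets of AURKA rose, by 0.26 and 0.20. The one with 0.20 lay at the filter limit of log2 4 and passed through its knockdown arrays, so its rise adds no support. AURKB, the catalytic subunit of the chromosomal passenger complex, was not called (-0.07), nor were its partners BIRC5 (0.15) and INCENP (-0.13). NEK2, a kinase that separates centrosomes, differed by 0.01 on its brightest probe set, but its other probe set fell by 0.66.

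Kinesins of the spindle were split evenly, with 2 of 9 higher and 2 lower (22.2% each, against 19.4% higher and 16.5% lower of all genes). KIF22, the chromokinesin that pushes chromosome arms away from the poles, read 8.31, 8.28 and 8.24 in control and 8.71, 8.66 and 8.64 in knockdown arrays. These arrays were clearly apart, at 1.32-fold (log2 difference 0.40, SE 0.05, limma adjusted p = 0.000871). The other probe set of KIF22 went the opposite way, with a fall of 0.33, and the mean of both differed by 0.03 (adjusted p = 0.72). KIF20A, which brings the passenger complex to the central spindle, read 9.33, 9.31 and 9.32 in control and 9.60, 9.61 and 9.63 in knockdown arrays. It had the tightest arrays among the called genes, with SDs of 0.0113 and 0.0155 (n = 3 each), and rose by 1.23-fold (log2 difference 0.30, SE 0.05, limma adjusted p = 0.00216). KIF14, a kinesin of cytokinesis, read 7.64, 7.79 and 8.07 in control and 7.36, 7.44 and 7.48 in knockdown arrays. Control array 3 stood highest, and the lowest control array was still above every knockdown array (log2 difference -0.41, SE 0.10, limma adjusted p = 0.0192). The call was lost without knockdown array 1 (-0.37, adjusted p = 0.0700) or knockdown array 2 (-0.42, 0.0554). KIF11, the motor that pushes spindle poles apart, read 8.06, 8.06 and 8.09 in control and 7.69, 7.78 and 7.90 in knockdown arrays. Its knockdown arrays were more scattered than its controls and all lower (log2 difference -0.28, SE 0.06, limma adjusted p = 0.0122). The other 5 kinesins, KIF2C, KIF4A, KIF15, KIF23 and KIFC1, were not called and differed by -0.14 to 0.14.

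APC/C partners held 2 rises among 6 genes (33.3%, against 19.4% of all genes) and 0 falls (16.5% of all genes). CDC20, which activates the complex once the checkpoint is satisfied, read 10.22, 10.19 and 10.10 in control and 10.56, 10.55 and 10.41 in knockdown arrays. All 3 knockdown arrays were above all controls, by 1.27-fold (log2 difference 0.34, SE 0.06, limma adjusted p = 0.00481). UBE2C, the ubiquitin-conjugating enzyme that starts chains on APC/C substrates, read 10.42, 10.47 and 10.47 in control and 10.77, 10.78 and 10.64 in knockdown arrays. Knockdown array 3 was the lowest of its group but higher than every control (log2 difference 0.28, SE 0.06, limma adjusted p = 0.00731). UBE2S, which extends those chains, was not called (-0.07), nor was FBXO5, the inhibitor of the complex (-0.08). Securin, encoded by PTTG1, differed by 0.14 and separase, encoded by ESPL1, by 0.13, neither called, although the second ESPL1 probe set rose by 0.23.

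Spindle microtubule-associated proteins gave 1 rise and 1 fall among 5, both slight (20% each, against 19.4% higher and 16.5% lower of all genes). TPX2, which activates AURKA on the spindle, read 9.27, 9.28 and 9.25 in control and 9.07, 9.10 and 9.14 in knockdown arrays (log2 difference -0.16, SE 0.05, limma adjusted p = 0.0324). NUSAP1, which bundles microtubules near chromosomes, read 10.30, 10.36 and 10.38 in control and 10.52, 10.47 and 10.52 in knockdown arrays (log2 difference 0.16, SE 0.05, limma adjusted p = 0.0377). In neither gene did the arrays of the groups overlap, and both calls depended on the settings. TPX2 lost it without a filter, under quantile normalization and median centring, and without any 1 array other than knockdown array 3 (adjusted p = 0.0534 to 0.103). NUSAP1 lost it without a filter (adjusted p = 0.0595), after subtraction of chromosome medians (0.0544) and when any of the 6 arrays was left out (0.0513 to 0.109). With the mean of its probe sets its direction turned, to -0.12 (adjusted p = 0.221), since its second probe set fell by 0.40. SPAG5, the astrin protein that steadies kinetochore fibres, had the largest difference of this group, 0.25, but was not called (adjusted p = 0.0674, 95% interval 0.04 to 0.46). Its control and knockdown arrays did not overlap, and it passed under quantile normalization (adjusted p = 0.048), a robust variance trend (0.0255) and array weights (0.0394), and without knockdown array 3 (0.0444). DLGAP5 and HMMR, which stabilise spindle microtubules, differed by 0.03 and 0.04 and were not called.

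Of 9 genes for mitotic cyclins, CDK1 and its activators, 1 rose (11.1%, against 19.4% of all genes) and 0 fell (16.5% of all genes). CDC25B, a phosphatase that switches CDK1 on, read 8.66, 8.75 and 8.67 in control and 8.94, 8.91 and 8.79 in knockdown arrays. The groups did not overlap, but the lowest knockdown array was close to the highest control (log2 difference 0.19, SE 0.06, limma adjusted p = 0.0393). The call was lost without a filter (adjusted p = 0.0585), after subtraction of chromosome medians (0.0754) and without any 1 array other than knockdown array 3 (0.0590 to 0.120). CCNB1, the main mitotic cyclin, differed by -0.03 (95% interval -0.17 to 0.10) and CDK1 itself by -0.09 (95% interval -0.30 to 0.11). All 3 CDK1 probe sets differed by -0.12 to -0.09 and none was called. CCNA2 differed by 0.05, CCNB2 by 0.12 and CCNF by -0.01, and the CDK-binding subunits CKS1B and CKS2 by -0.03 and 0.06. CDC25C, the other CDK1 phosphatase, had the largest difference of the group, 0.21, on its brightest probe set without being called (adjusted p = 0.113), and its other probe sets differed by -0.31, which was called lower, and -0.08.

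Neither transcription factor passed the test. FOXM1, which switches on G2 and mitotic genes with the MuvB complex, differed by 0.15 (adjusted p = 0.12, 95% interval -0.01 to 0.31). MYBL2, the MYB protein that joins the same complex, differed by -0.24 with arrays that did not overlap (adjusted p = 0.0571, 95% interval -0.43 to -0.05). It passed under 7 alternatives, among them a stricter filter (adjusted p = 0.0423) and subtraction of chromosome medians (0.0304).

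None of the 5 spindle checkpoint genes was called, against 35.9% of all genes. The kinase BUB1 differed by -0.11, its relative BUB1B (BUBR1) by -0.04, MAD2L1 by -0.07 and the kinase TTK (MPS1) by 0.05. BUB3, which docks the BUB proteins on the kinetochore, had the largest difference, 0.13 (adjusted p = 0.093), and passed with a robust variance trend (0.0263) and with array weights (0.0392). Among 3 central spindle and cytokinesis genes none was called either. The microtubule bundler PRC1 differed by less than 0.01 (95% interval -0.12 to 0.12). RACGAP1, the GTPase-activating subunit of centralspindlin, differed by 0.18 (adjusted p = 0.0777). ECT2, the exchange factor that activates RhoA at the furrow, differed by -0.30 with a wide spread (adjusted p = 0.114, 95% interval -0.61 to 0.01), and passed with a robust variance trend (0.0474).

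**Figure D3:**
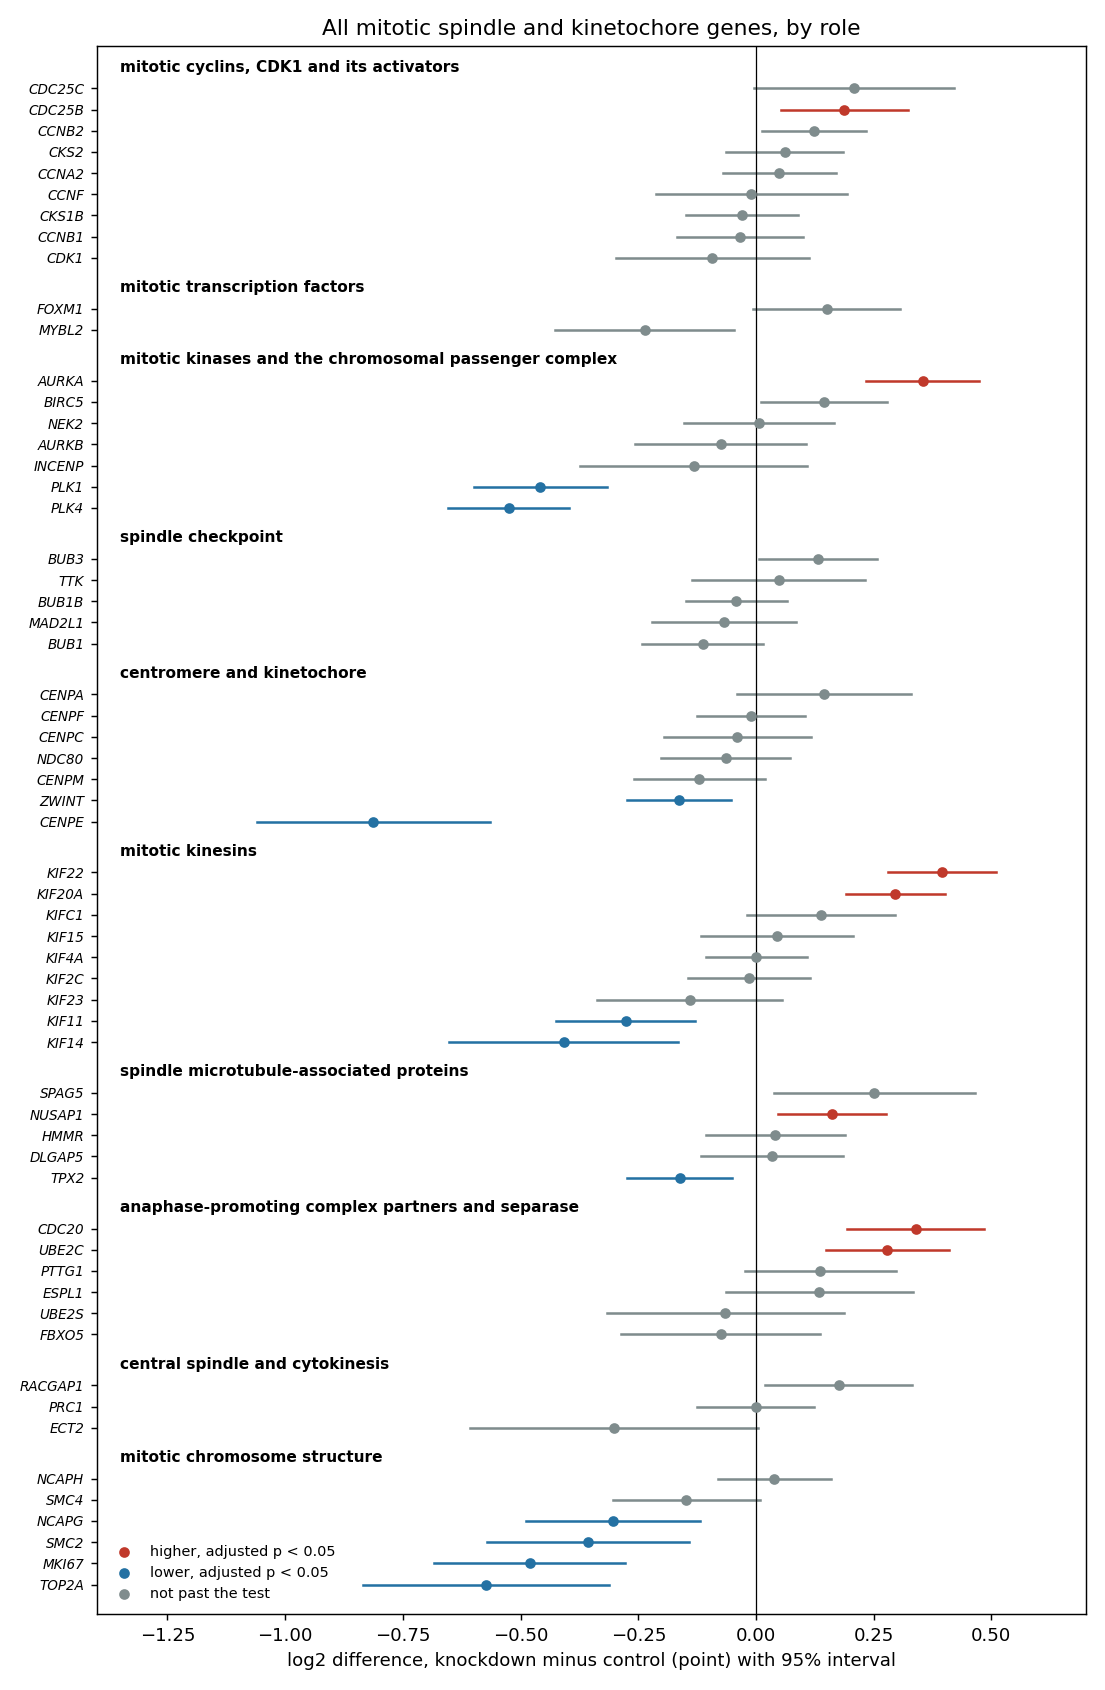
Log2 difference, knockdown minus control, with its 95% interval (horizontal axis) for each of the 59 mitotic genes, grouped by role and coloured by call. The chromosome structure group holds 4 falls in 6 genes, of which SMC2 and NCAPG were lost without knockdown array 1 or 2, the spindle checkpoint and central spindle groups hold none called, and the kinases and kinesins hold both directions.

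Over the 41 genes not called, differences ran from -0.30 to 0.25 and the 95% intervals from -0.61 to 0.46. For 40 of them the interval stayed within 0.5 of 0 on either side, counting the spread between arrays alone. Without adjustment, 24 of the 59 genes had a limma p under 0.05. The matching share of all genes was not counted, so this number is no result about mitotic genes in particular. On simulated arrays with the levels and spreads of these 9241 genes, the same procedure recovered 54% of genes shifted by 0.32 on the log2 scale and 84% of genes shifted by 0.58. Only 50 genes were shifted at each simulated size, whereas 35.9% of all genes were called in the data. The adjustment is stricter when fewer genes differ, so these shares do not carry over to the data. All 41 differences not called were smaller in size than the simulated shift of 0.32. Values identical between arrays, which arise in normalized intensities, occurred for 16 of the 59 genes (27.1%) and for 23.7% of all genes.

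Several mitotic genes were measured by more than 1 probe set, and these often disagreed. Of the 94 probe sets of the 59 genes 90 passed the filter, and 21 genes had at least 2. In 15 of the 21 genes (71.4%) the dimmest probe set lay lower in its difference than the brightest, against 61.4% of 3085 genes on the whole array. The sign was opposite in 11 of 21 (52.4%), against 33.1%. Among the 31 probe sets other than the brightest, 3 were higher (9.68%, against 12.8% of such probe sets of all genes) and 13 lower (41.9%, against 22.4%). Falls on dimmer probe sets included NEK2 (-0.66), BUB1 (-0.59), CCNF (-0.56), BIRC5 (-0.34), SMC4 (-0.31) and BUB3 (-0.23), whose brightest probe sets were not called. In that order, the mean log2 levels of these dimmer sets were 6.0, 4.2, 5.5, 8.1, 5.1 and 9.1. The BUB1 set lay at the filter limit of log2 4 and passed through its control arrays, so its fall adds no support. The 3 rises were both dimmer AURKA probe sets and that of ESPL1. The dimmest AURKA set lay at the filter limit and passed through its knockdown arrays, so its rise adds no support. PLK4, SMC2 and NCAPG fell on every probe set past the filter, and AURKA rose on every one above the filter limit. By contrast, KIF22 and NUSAP1 were called in opposite directions on their 2 probe sets. Counted over every probe set on its own, 26.7% of the 90 were lower (18.2% of all) and 11.1% higher (16.8% of all). Where the probe sets lie along the transcripts was not used here. The lower 5′ relative to 3′ signal of beta-actin (-0.82), GAPDH (-0.10) and dap (-0.97) in knockdown arrays moved with these counts, and its part in them was not tested.

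**Figure D4:**
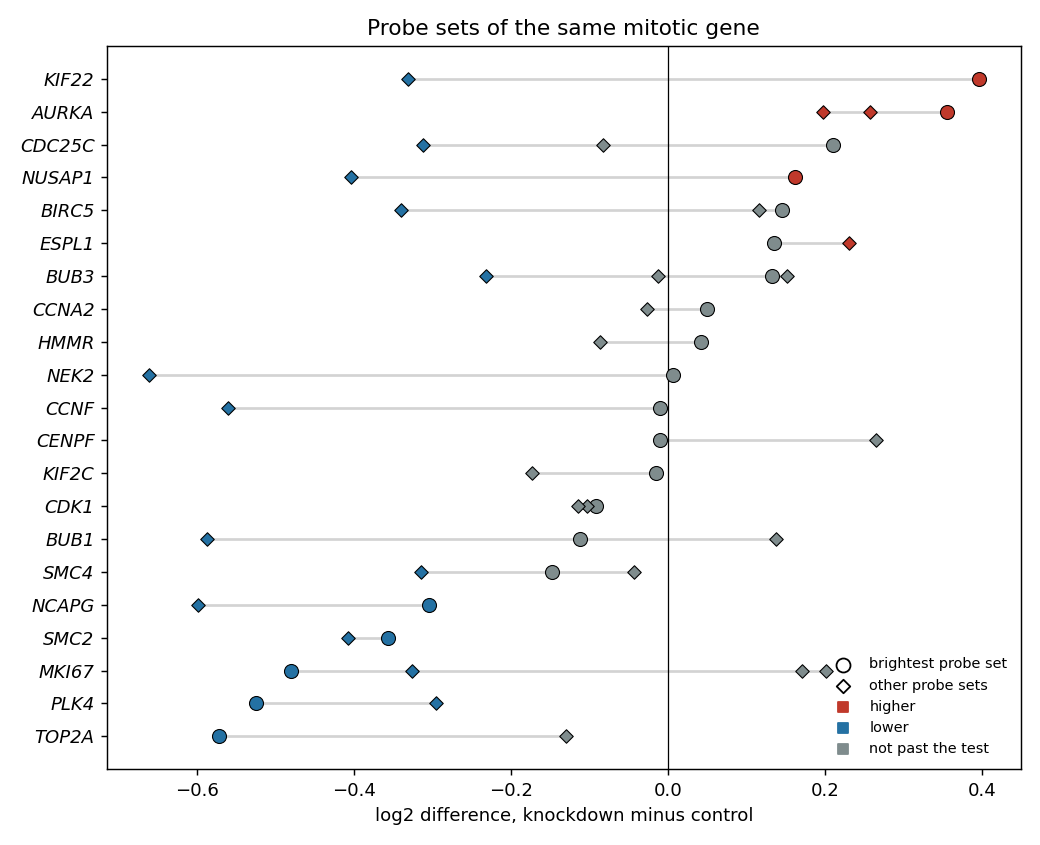
Log2 difference, knockdown minus control (horizontal axis), of every probe set past the filter for the 21 mitotic genes with at least 2, with the brightest probe set of each gene set apart from the others. The probe sets of PLK4, SMC2, NCAPG and AURKA lie on 1 side of zero, those of KIF22, NUSAP1 and MKI67 on both sides, and dimmer probe sets lie lower than the brightest in 15 of 21 genes when the dimmest is taken.

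The other genes of mitosis, from lists of its complexes and regulators, gave 15 rises and 32 falls among 109 measured (of 149 listed), so 43.1% were called, against 35.9% of all genes. Rises made up 13.8% and falls 29.4%, against 19.4% and 16.5% of all genes. Of the 7 measured on chromosome 13, 6 fell. Measured genes of that chromosome had a median difference of -0.27 with 58.9% lower, and it carries 0 of the 59 genes above. Outside chromosome 13, 26 of 102 fell and 15 rose, and the matching share of all genes was not counted. After the median of every chromosome was subtracted, 11 of the 109 were higher and 30 lower (all genes 1551 and 1619 of 9241). MAD1L1 and NCAPG2 on chromosome 7 and RBL2 on chromosome 16, all named below, stayed called after it (-0.33, -0.36 and -0.33). In the kinetochore list 5 of 21 fell (23.8%) and 2 rose (9.52%). The falls were led by ZWILCH (-0.68), a subunit of the RZZ complex that ZWINT recruits, the checkpoint protein MAD1L1 (-0.43) and the MIS12 complex subunit PMF1 (-0.39). In the APC/C list, which holds subunits and the co-activator FZR1 (-0.04, not called), 4 of 9 fell (44.4%) and 0 rose. Among them were CDC27 at -0.55, ANAPC15 at -0.48 and CDC16 at -0.25. CDC16 lies on chromosome 13 and differed by 0.02, no longer called, once the chromosome median was subtracted.

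Among cohesin genes and the other condensin subunits 4 of 14 fell (28.6%, against 16.5% of all genes) and 1 rose (7.14%, against 19.4%). NCAPG2, the condensin II counterpart of NCAPG, fell by 0.47, the cohesin regulator PDS5B by 0.51 (-0.24 after subtraction of the chromosome 13 median) and the cohesin loader NIPBL by 0.35. The list of centrosome, gamma-tubulin and augmin genes gave 6 falls (35.3%) and 4 rises (23.5%) in 17. CEP192, which recruits PLK4 and AURKA to the centrosome, rose by 0.79. The gamma-tubulin ring subunits TUBGCP3 (-0.71, or -0.44 after subtraction) and TUBGCP5 (-0.48) fell. Of 17 other spindle, passenger and cytokinesis genes 3 fell (17.6%, near the share of all genes) and 1 rose (5.88%). KIF18A, a kinesin that dampens chromosome oscillation, fell by 0.75, the spindle pole protein ASPM fell by 0.52, and CDCA8, the borealin subunit of the passenger complex, rose by 0.30.

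Regulators of mitotic entry gave 4 falls (36.4%, against 16.5% of all genes) and 1 rise (9.09%, against 19.4%) in 11. ENSA, an inhibitor of PP2A in mitosis, differed by -0.45, the AURKA cofactor BORA by -0.39 and WEE1, the kinase that holds CDK1 inactive, by 0.25. BORA lies on chromosome 13 and was not called after subtraction of its median (-0.12). MuvB, E2F and RB family genes were split, with 4 rises and 4 falls in 15 (26.7% each). RB1, on chromosome 13, fell by 0.64 (-0.37 after subtraction, still called), the pocket protein RBL2 fell by 0.43 and MYBL1 rose by 0.30. Of 5 genes listed as CDK inhibitors 2 rose and 2 fell (40% each): CDKN1C at 0.40, CDKN1A, which encodes p21, at 0.25, and CDKN2D at -0.42. The other fall was CDKN3 (-0.17), listed by its symbol. CDKN1A lies on chromosome 6, where the median was 0.14, and it was not called after subtraction of that median (0.10, adjusted p = 0.246).

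**Figure D5:**
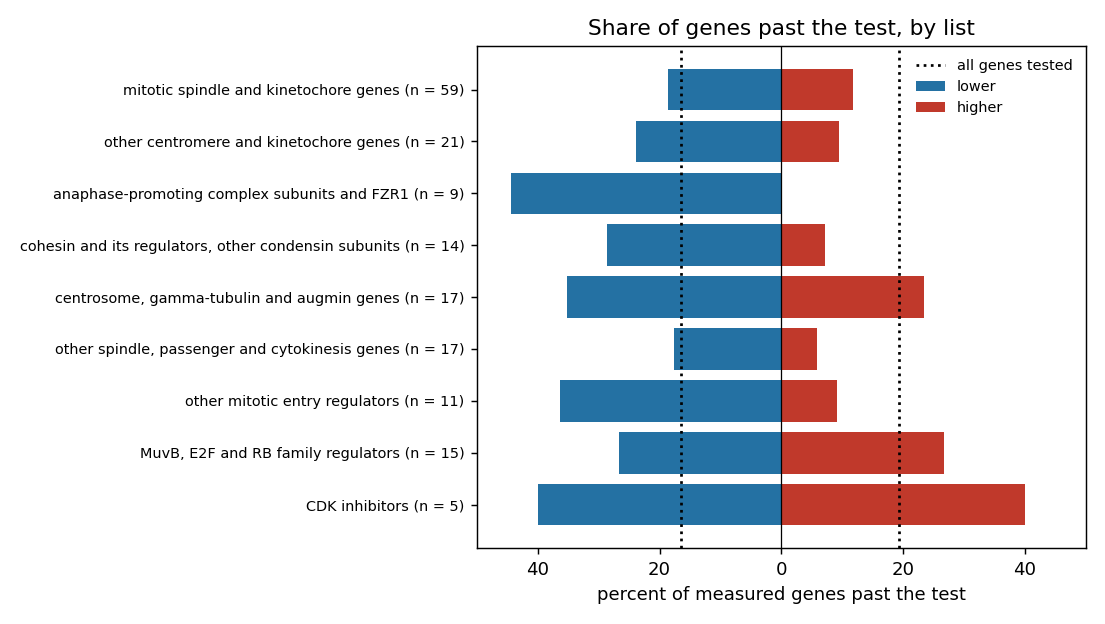
Percent of measured genes past the test in each list (horizontal axis, lower to the left and higher to the right), for the 59 mitotic genes and the 8 lists of other mitotic genes, with dotted lines for all 9241 genes tested. The 59 genes show 18.6% lower and 11.9% higher, all genes 16.5% and 19.4%, and the list of APC/C subunits and FZR1 44.4% lower with 0 higher.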

How the data were processed

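Total RNA of 3 control and 3 knockdown arrays was labelled with biotin, per the labels' protocols. Linear probe set intensities deposited by the authors were made with GCRMA, per the submitters' processing notes, in a version not given in the sources used here. Names for 22277 probe sets came from the platform annotation: 62 were controls, 19064 had 1 symbol, 1043 several and 2108 none. The deposited intensities were log2-transformed here. Probe sets reaching log2 4 (16 in intensity) in at least 3 of 6 arrays were kept, and the one with the highest mean stood for its gene. Differences came from limma 3.58.1 (lmFit and eBayes, R 4.3.3) with Benjamini-Hochberg adjustment over 9241 genes, and called means an adjusted p under 0.05. The procedure was checked on simulated data. Promoter sequences were credited to RefSeq (GRCh38.p14). The genes and lists were chosen with earlier results of these data known. Named were all called genes of the 59, the largest difference in each role, and up to 3 called genes in each other list by size, with the remaining genes of the 59 given by their difference. FZR1 and CDKN3 were named beyond this rule. Arrays carry no read depth, and their number limits the precision. Alternatives covered filters, a floor, normalization, probe set handling, the variance model, weights, a replicate block, chromosome medians and single arrays left out.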

Additional observations from a re-analysis of the deposited data

How the results depend on the processing

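Counts of called mitotic genes stayed within 1.5 times of 7 higher and 11 lower under most of the 18 alternatives, all planned except adjustment over every probe set, which was chosen after seeing the data. Within that range, the mean of all probe sets gave 5 higher and 15 lower (all genes 1611 and 1671 of 8926). Subtraction of chromosome medians gave 5 and 13 (all genes 1551 and 1619 of 9241). Quantile normalization gave 9 and 10 (all genes 2022 and 1439 of 9244). Exceptions to that range were the exclusion of _x_at and _s_at probe sets, with 4 higher and 7 lower of 37 genes tested (all genes 1089 and 916 of 5851, other mitotic genes 6 and 15), a robust variance trend or array weights, each with 12 higher, and the omission of knockdown array 1 or 2, each with 6 lower. The counts of all genes moved as well. Those higher were 1954 with the trend and 2340 with the weights, of 9241, against 1793 with the main settings. Those lower were 1348 and 1183 under the 2 omissions, against 1526. The exclusion tested fewer genes. The 2 omissions used fewer arrays, as did the other omissions, whose counts stayed within that range. Why the counts moved was not tested. With single arrays left out, 5 to 9 of the 59 genes were higher and 6 to 11 lower, CENPE differed by -0.90 to -0.70, and the median of the 59 genes by -0.03 to 0.01. Over all genes 1269 to 1699 were higher and 1176 to 1348 lower, and of the other mitotic genes 10 to 15 and 23 to 30. CDC25C turned to -0.0622 with the mean of its probe sets and to -0.0838 without _x_at and _s_at probe sets, and NUSAP1 to -0.12 with the mean. CENPE kept its call under all 18, with a highest adjusted p of 0.0066. It had 1 probe set, so probe set handling could not change its value. Whether replicate numbers pair the arrays was not settled. Deviations of same-numbered arrays correlated at 0.11, 0.00 and 0.18. Arrays numbered 1 and 3 correlated best with their own number and at -0.15 and -0.14 with each other, while those numbered 2 did not. With the replicate block 8 of the 59 genes were higher and 12 lower (all genes 1808 and 1586). Under it TPX2 (adjusted p = 0.0568) and NUSAP1 (0.0598) were not called, and CDC25C (0.0249), ECT2 (0.026), MYBL2 (0.028) and SPAG5 (0.0187) were.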
